A study of Bos indicus with 11 samples.

Results

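Genes of catecholamine synthesis, breakdown and reception were described in endometrial biopsies of 11 cows, and phenylethanolamine N-methyltransferase (PNMT) was the gene around which they were gathered. The members were found as the rows of the deposited table whose symbol equals 1 of 8 names: PNMT, DBH, TH, DDC, MAOA, MAOB, ADRA1A and ADRA2A. Of these, 7 were found among 24616 rows, and no row carries the symbol ADRA2A, so that this receptor is not analysed here. PNMT was picked because its values differ between the groups in these same cows. The group values of all members are therefore given as a description, with no test. The cows were multiparous, healthy Nelore (Bos indicus) females whose estrus had been synchronized with a prostaglandin analogue and which were inseminated at detected estrus. On day 6 after artificial insemination (AI) a biopsy was taken from the uterine horn opposite to the ovary bearing the corpus luteum, hence from the horn where the embryo is not expected. The cows were grouped afterwards, by the diagnosis on day 30, into 6 pregnant (P) and 5 non-pregnant (NP) cows, and each cow is 1 replicate. All cows of both groups received the same treatment.

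Catecholamines are made from tyrosine in a chain of enzymes. Tyrosine hydroxylase (TH) makes DOPA, DOPA decarboxylase (DDC) makes dopamine, dopamine beta-hydroxylase (DBH) makes noradrenaline, and PNMT methylates noradrenaline to adrenaline. In the body this chain is best known from the adrenal medulla, while the uterus receives noradrenaline mainly from sympathetic nerves, whose cell bodies lie outside the organ. Monoamine oxidases A and B (MAOA, MAOB) break catecholamines down, and adrenergic receptors on muscle, vessels and epithelium respond to them, with alpha-1 receptors contracting the uterine muscle.

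The values are normalized counts, that is, reads per gene divided by a size factor for each cow, and 1 read was worth 0.784 to 1.14 normalized counts. Between 9290949 and 13508711 reads fell on genes in P cows and between 9783673 and 13569085 in NP cows. Marker genes were set beside the tissue label. The 8 epithelial, 6 stromal and 3 hormone receptor genes (ESR1, PGR and OXTR) in the table had reads. At this depth the presence of reads does not test the label. Cow P617 stood apart, with an epithelial sum of 1946 normalized counts where the remaining P cows had 8160 to 21509, and with the highest sum of 6 smooth muscle genes, 239586. Cow P1541 had the next highest muscle sum, 189628. The sample label of cow P617 says pregnant and was followed here, whereas the study's list of sequencing records names it as non-pregnant. That list also gives cows P1541 and P1631 the same run, but their values in the table differ. In bulk tissue, fewer cells of a type and less RNA per cell cannot be told apart.

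PNMT (ENSBTAG00000011731) was higher in NP cows. In the P cows it had 9.06 normalized counts in P1753, 10.2 in P617, 10.3 in P1631, 14.9 in P2396, 22.3 in P1541 and 28.7 in P904. In the NP cows it had 29.0 in NP856, 35.3 in NP2541, 58.8 in NP638, 59.7 in NP238 and 62.2 in NP2810. P1753, P617, P1631 and P2396 were low, and 3 NP cows were high and close to each other. The groups did not overlap, but they met: NP856 exceeded P904 by 0.297 normalized counts, which is less than the 0.958 that 1 read was worth in P904.

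The mean of PNMT was 49.0 ± 15.6 normalized counts for NP (SD, n = 5) and 15.9 ± 7.97 for P (SD, n = 6), a ratio of 3.08. On the log2(normalized count + 1) scale the fold change of NP over P was 1.62 (standard error, SE, 0.369). Of the 5 members with a mean of at least 5 normalized counts, PNMT was the 1 whose groups did not overlap, beside 0.855% of all genes tested that lay higher in NP cows and 0.239% that lay higher in P cows in the same way. Since this contrast chose PNMT, nothing is read from that count. Without cow P617 the P cows had a mean of 17.0 ± 8.34 (SD, n = 5), and without both P617 and P1541 15.7 ± 9.02 (SD, n = 4). The log2 fold change was then 1.53 and 1.65.

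**Figure D1:**
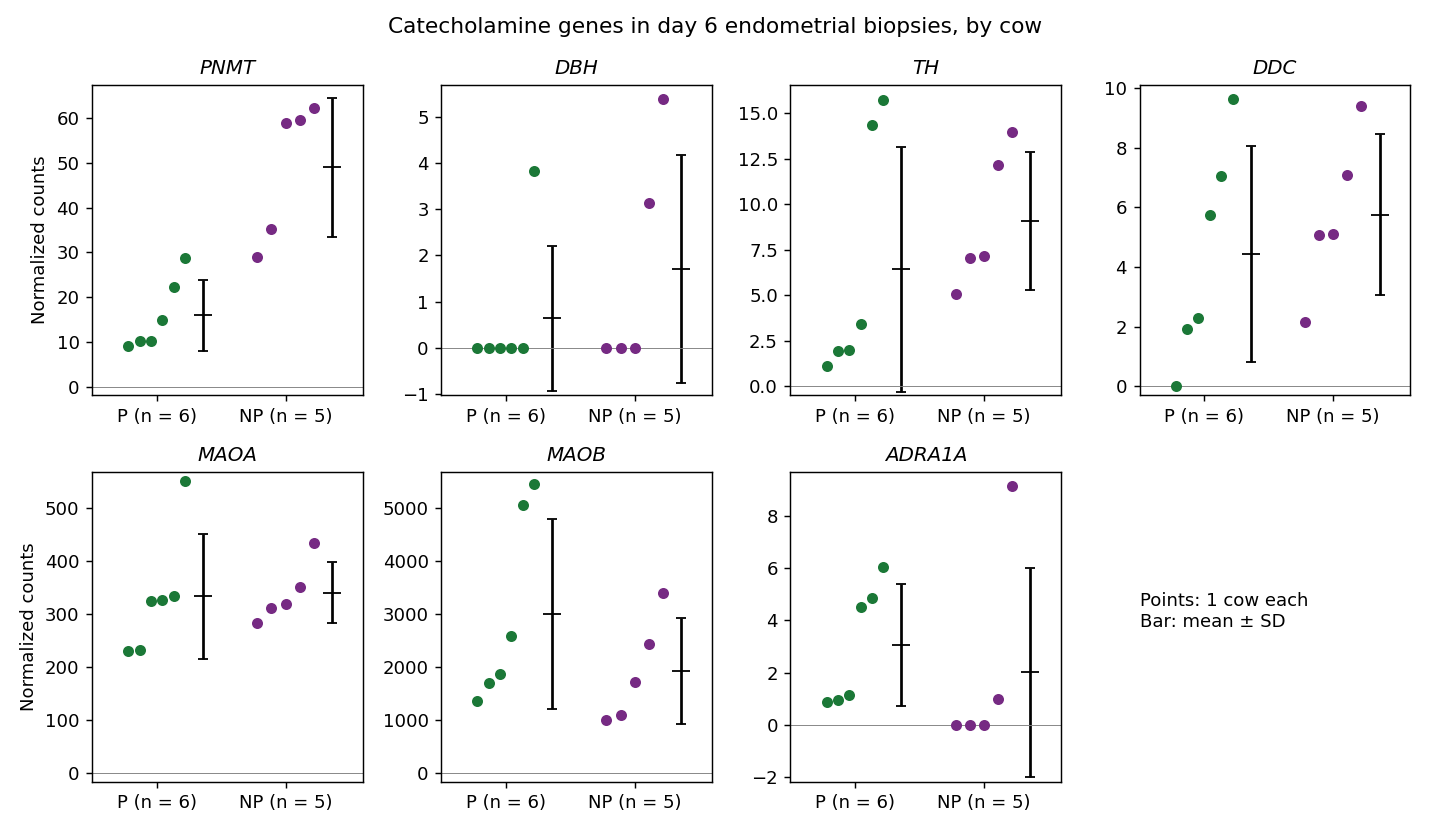
Normalized counts (vertical axis, a separate linear scale for each gene) of the 7 members found, with 1 point for each cow ordered from low to high within P (green, n = 6) and NP (purple, n = 5), and the mean with its SD in black. PNMT runs from 9.06 to 28.7 in P cows and from 29.0 to 62.2 in NP cows, while the groups overlap in the other 6 genes; SD bars that pass below 0 show only how wide the spread is.

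PNMT rested on few reads. The whole series held 347 of them, from 9 reads in each of P617, P1631 and P1753 to 61 in NP2810. As a share of the reads on genes, P904 had 2.71 reads per 1000000 (exact Clopper-Pearson 95% interval 1.83 to 3.86) and NP856 had 2.76 (1.82 to 4.02), so that these cows could not be told apart at this depth. NP2541, at 3.32 (2.42 to 4.44), overlapped with P904 and with P1541, whose upper bound was 2.55. The interval of NP856 also overlapped with those of P1541, P2396 (upper bound 2.26) and P1631 (upper bound 1.84). NP638, NP238 and NP2810 lay at 5.19, 5.57 and 5.62, and the lower bounds of their intervals, 3.94, 4.24 and 4.30, were above the upper bound of each P cow. The intervals cover counting error only.

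**Figure D2:**
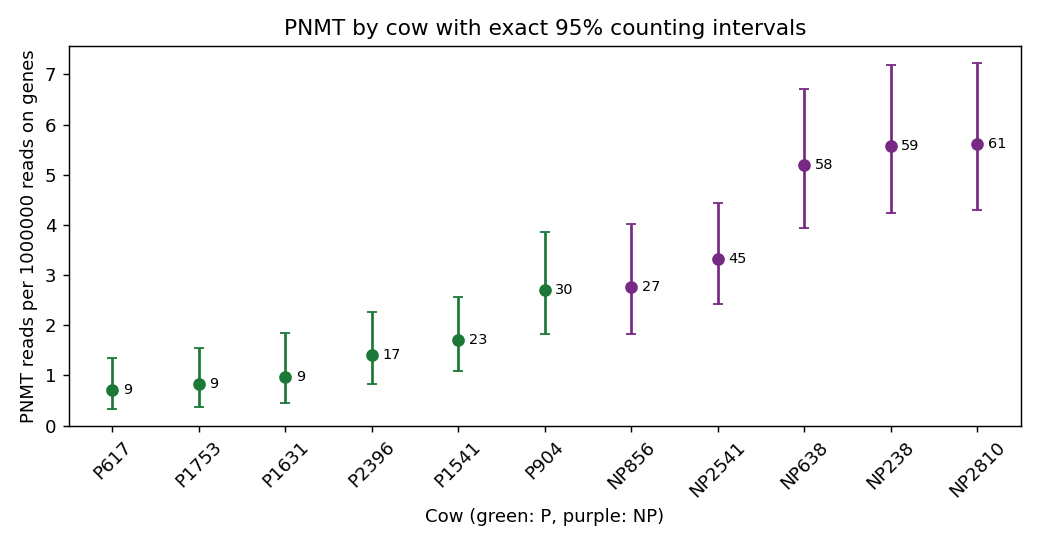
PNMT reads per 1000000 reads on genes (vertical axis) in each cow (horizontal axis, P in green and NP in purple), with exact Clopper-Pearson 95% intervals and the number of reads beside each point. P904 with 30 reads and NP856 with 27 reads have nearly the same share, and the 3 highest NP cows, with 58 to 61 reads, stand above all P intervals.

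The enzymes upstream of PNMT had few reads in both groups. TH (ENSBTAG00000026768), the first and rate-limiting step, had a read in each of the 11 cows. Its P values ran from 1.13 normalized counts in P617 to 15.8 in P2396 with a median of 2.72, and its NP values were 5.07 in NP638, 7.06 in NP2541, 7.14 in NP2810, 12.1 in NP238 and 14.0 in NP856. The P cows fell into 4 low cows, at 3.43 or less, and the 2 highest cows of all, P904 at 14.4 and P2396, so that the NP values lay between. The means were 9.08 ± 3.78 for NP (SD, n = 5) and 6.44 ± 6.73 for P (SD, n = 6), and the log2 fold change was 0.85 (SE 0.615). It was 0.32 without P617 and P1541 and 0.11 with the smooth muscle score, the mean log2 value of the muscle genes, as a covariate.

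DDC (ENSBTAG00000020869), which removes the carboxyl group of DOPA, was the member nearest to the filter, with a mean of 5.04 over all cows. P cows ran from 0 in P617 to 9.63 in P2396 with a median of 4.02. NP cows had 2.15 in NP856, 5.07 in NP638, 5.10 in NP2810, 7.08 in NP238 and 9.41 in NP2541. The groups covered nearly the same range, with means of 5.76 ± 2.69 for NP (SD, n = 5) and 4.44 ± 3.63 for P (SD, n = 6). The log2 fold change of 0.58 (SE 0.626) became -0.07 without P617 and P1541.

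DBH (ENSBTAG00000004508), which makes the noradrenaline that PNMT methylates, had 13 reads in all. They came from 3 cows: 4 reads in P904, 4 in NP2541 and 5 in NP856. The other 8 cows had 0 reads, which at 3 reads per cow allows up to 2.63 to 3.43 normalized counts. DBH was below the filter at a mean of 1.12, its group means were 1.70 ± 2.46 for NP (SD, n = 5) and 0.639 ± 1.56 for P (SD, n = 6), and a difference was not detectable at this depth. The 3 NP cows with the highest PNMT, NP2810, NP238 and NP638, were among the cows without a DBH read.

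Cells that make catecholamines were looked for through 12 genes of chromaffin cells and sympathetic neurones. Their summed level was 65.6 to 276 normalized counts in P cows and 61.9 to 208 in NP cows. The neuronal genes GAP43 and ELAVL4 were at 0 in every cow, whereas other genes of the list had reads. STMN2 reached 64.2 normalized counts in P and 106 in NP cows, NPY 50.8 and 57.1, and PHOX2A 11.4 and 10.1. CHGB, a core protein of chromaffin granules, did not pass 2.03 in any cow. CHGA, its relative, which is also made by other endocrine cells, was highest in P617 at 215, and its mean was 35.4 in NP and 90.4 in P cows. Of the 4 genes of this list that were tested, CHGA had a log2 fold change of -0.92, and SCG2, NPY and STMN2 had 0.35, 1.23 and 1.26, with limma adjusted p-values of 0.772 to 0.884.

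The remaining genes of the pathway came from lists drawn up from general knowledge. Without the members, 68 rows were found and 59 were tested. With limma 0 of the 59 genes had an adjusted p-value under 0.1, as did 0% of all genes tested, and the adjusted p-values ran from 0.400 to 0.997. The mean log2 value lay higher in NP cows for 32 of the 59, beside 50.2% of all genes. Before adjustment 6 genes had a p-value under 0.05 (10.2%, against 7.84% of all genes), and these 6 were higher in NP cows, as were 5.49% of all genes, with 2.35% higher in P cows. They were NR3C1, RGS5, SPR, ADRB1, STARD3 and ADRA2B. The median log2 fold change was 0.02 over the 59 genes and 0.0018 over all genes. The quasi-likelihood test of edgeR and DESeq2 called 0 of the 59 genes as well, where DESeq2 called 1.33% of all genes. Without cow P617 limma called 0 of the 59 genes too.

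**Figure D3:**
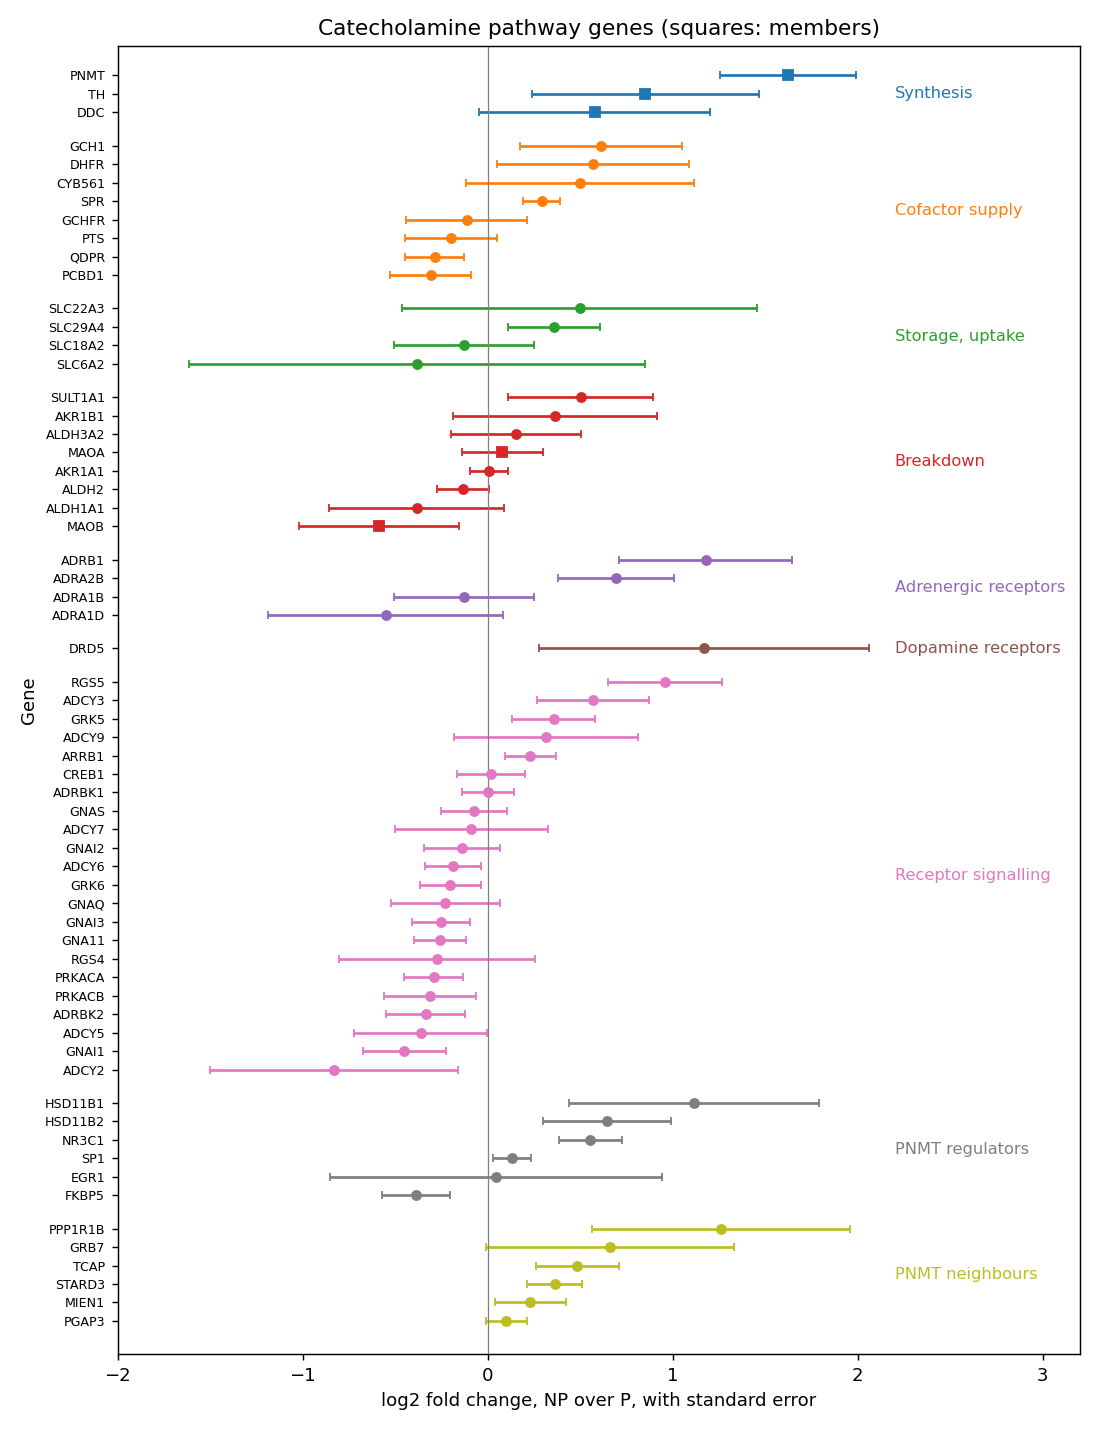
Log2 fold change, NP over P, and its standard error (horizontal axis) for the members (squares) and the pathway genes reported here (circles) with a mean of at least 5 normalized counts, grouped by role (vertical axis, 1 gene per line). PNMT at 1.62 lies farthest to the right, ADRB1 at 1.18 is the highest of the adrenergic receptors, and most genes of breakdown and receptor signalling lie near 0.

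Cofactor supply was measured by 8 genes, 4 higher in NP and 4 higher in P cows. TH needs tetrahydrobiopterin, and sepiapterin reductase (SPR) makes its last step. SPR averaged 722 ± 103 normalized counts in NP (SD, n = 5) and 586 ± 23.3 in P cows (SD, n = 6). The groups did not overlap, with a gap of 41.3 normalized counts, and NP2810 at 903 was far above the other NP cows. Its log2 fold change was 0.29 (limma, adjusted p = 0.473). GTP cyclohydrolase 1 (GCH1), which opens the same route, had a log2 fold change of 0.61 (limma, adjusted p = 0.790).

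Of 4 tested genes of storage and uptake, 2 were higher in NP and 2 in P cows. The vesicular transporter SLC18A2, which loads monoamines into granules, averaged 276 ± 32.5 normalized counts in NP (SD, n = 5) and 342 ± 158 in P cows (SD, n = 6), which gave a log2 difference (NP minus P) of -0.13 (limma, adjusted p = 0.948). Its lowest cow was P617 at 89.2 and its highest P1631 at 556, and the difference was -0.47 without P617, 0.05 without P1631, -0.53 without P617 and P1541 and -0.51 with the smooth muscle covariate. The noradrenaline transporter SLC6A2 was high in P1753, at 255 normalized counts, whereas the remaining P cows had 0.958 to 24.0 and the NP cows 1.02 to 40.9. The transporters SLC22A3 and SLC29A4, which take up amines outside nerves, had log2 fold changes of 0.50 and 0.36 (limma, adjusted p = 0.920 and 0.780). SLC22A2 had no read in any cow.

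Of the breakdown enzymes, MAOA (ENSBTAG00000016206), which prefers noradrenaline and serotonin, was nearly level. P cows ran from 230 normalized counts in P1631 to 552 in P617 with a median of 326, and NP cows had 284 in NP856, 313 in NP238, 320 in NP638, 352 in NP2541 and 434 in NP2810. P617 stood above all other cows, and the other P cows did not pass 335. The means were 340 ± 57.8 for NP (SD, n = 5) and 333 ± 118 for P (SD, n = 6), with a log2 fold change of 0.08 (SE 0.218), and of 0.30 (SE 0.170) without P617 and P1541.

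MAOB (ENSBTAG00000001288), which acts on phenylethylamine and dopamine, spread more widely. P cows had 1358 normalized counts in P904, 1705 in P1631, 1866 in P2396, 2587 in P1753, 5045 in P1541 and 5453 in P617. NP cows had 996 in NP856, 1098 in NP238, 1711 in NP2541, 2439 in NP2810 and 3390 in NP638. P1541 and P617 stood far above the rest, and the groups overlapped over most of their range. The means were 1927 ± 1000.2 for NP (SD, n = 5) and 3002 ± 1790.3 for P (SD, n = 6), a log2 fold change of -0.59 (SE 0.433). Without cow P617 the P mean was 2512 ± 1485 (SD, n = 5).

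The order of the cows in MAOB was close to their order in smooth muscle genes. The 4 cows with the highest sums of MYH11, DES, CNN1, LMOD1, SYNM and MYOCD were P617, P1541, NP638 and P1753, and these 4 cows also had the highest MAOB, in the same order. NP2810 was the exception, with the lowest muscle sum (15968) and the fifth highest MAOB. The difference between the groups was -0.08 (SE 0.350) without P617 and P1541, and 0.13 (SE 0.322) with the smooth muscle score as a covariate. The 6 muscle genes were all lower in NP cows, with sums of 15968 to 110592 against 31133 to 239586 in P cows. PNMT was highest in NP2810 and NP238, which had the lowest muscle sums, but NP638, the third in muscle genes, had 58.8 normalized counts. Its log2 fold change was 1.51 (SE 0.442) with the smooth muscle score as a covariate.

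**Figure D4:**
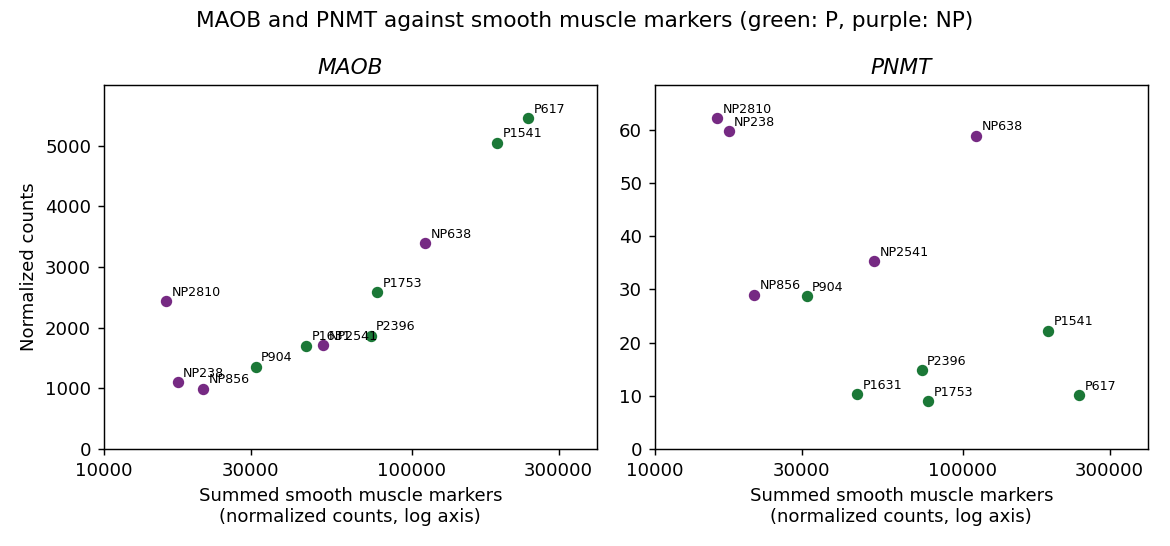
Normalized counts of MAOB and PNMT (vertical axes, linear) against the summed normalized counts of 6 smooth muscle genes (horizontal axes, log scale), with 1 point for each cow, P in green and NP in purple. MAOB is highest, at 5453 and 5045, in the 2 cows richest in muscle genes, while PNMT is 10.2 in P617 and 58.8 in NP638, the third richest.

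The tested breakdown genes that are no members had log2 fold changes from -0.38 for ALDH1A1 to 0.50 for SULT1A1, with adjusted p-values of at least 0.799 in limma. They include the aldehyde dehydrogenases and reductases that clear the aldehydes made by the monoamine oxidases. ALDH3A2 averaged 12430 ± 2496 normalized counts in NP (SD, n = 5) and 12189 ± 4924 in P cows (SD, n = 6). Its log2 fold change of 0.15 turned to -0.14 without P617, -0.31 without P617 and P1541 and -0.30 with the smooth muscle covariate.

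Among the receptors, ADRA1A (ENSBTAG00000031632), a contractile alpha-1 receptor, had 28 reads in all and was below the filter. P cows ran from 0.875 normalized counts in P2396 to 6.04 in P1753, with a median of 2.83. NP638 had 9.13, NP238 had 1.01, and NP856, NP2541 and NP2810 had 0. The 4 cows with the highest ADRA1A, NP638, P1753, P1541 and P617, were the 4 cows with the highest smooth muscle sums. The means were 2.03 ± 3.99 for NP (SD, n = 5) and 3.06 ± 2.33 for P (SD, n = 6), and a difference was not detectable at this depth.

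The groups overlapped in the other alpha-1 receptors. ADRA1D was highest in P1541, NP638 and P617, the first 3 cows in muscle genes, at 19.4, 14.2 and 7.91 normalized counts, with a log2 fold change of -0.55 (limma, adjusted p = 0.865). ADRA1B averaged 34.6 ± 14.6 normalized counts in NP (SD, n = 5) and 37.5 ± 11.7 in P cows (SD, n = 6).

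ADRA2B, an inhibitory alpha-2 receptor, averaged 78.1 ± 16.3 normalized counts in NP (SD, n = 5), from 64.5 to 97.1, and 50.6 ± 18.4 in P cows (SD, n = 6), from 20.3 to 70.0. Its log2 fold change was 0.69 (SE 0.314; limma, adjusted p = 0.634) and the groups overlapped. ADRB1, the beta-1 receptor known from heart, had 18.8 in NP2541, 30.3 in NP238, 31.5 in NP638, 34.4 in NP856 and 38.7 in NP2810. In P cows it had 3.39 in P617, 9.68 in P1541, 12.6 in P1631, 13.1 in P2396, 21.1 in P1753 and 31.6 in P904. P904 and P1753 thus lay within the NP range and NP2541, NP238 and NP638 within the P range. The log2 fold change was 1.18 (SE 0.467; limma, adjusted p = 0.548). It was 0.68 without P617 and P1541 and 0.64 with the smooth muscle score as a covariate, and that of ADRA2B was 0.46 without P1541 and 0.42 with the covariate. ADRB3, DRD1, DRD2 and DRD3 were below the filter, and the dopamine receptor DRD5 averaged 8.68 ± 10.3 normalized counts in NP (SD, n = 5) and 4.06 ± 6.41 in P cows (SD, n = 6), with 25.8 in NP856. Its log2 fold change was 1.17, and 0.65 without NP856.

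Receptor signalling was measured by 22 tested genes, 7 higher in NP and 15 higher in P cows, with a median log2 fold change of -0.19. These are G protein subunits, adenylyl cyclases, kinases, arrestins and RGS proteins. The stimulatory subunit GNAS, whose symbol is on 2 rows of the table, had a log2 fold change of -0.07 on the row that was tested, and of 0.01 without P617 and 0.10 without P617 and P1541. RGS5, which damps G protein signals and is a marker of pericytes, averaged 2113 ± 292 normalized counts in NP (SD, n = 5) and 1231 ± 835 in P cows (SD, n = 6), with P904 at 2910 and the other P cows at 1115 or less. Its log2 fold change was 0.96 (SE 0.310; limma, adjusted p = 0.434), and without P904 it was 1.25 (limma, adjusted p = 0.0179), a fit in which 171 of all genes had an adjusted p-value under 0.1.

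Genes known to act on PNMT transcription were compared, since glucocorticoids and EGR1 are its known inducers in the adrenal medulla. NR3C1, the glucocorticoid receptor, averaged 172 ± 27.7 normalized counts in NP (SD, n = 5) and 117 ± 20.6 in P cows (SD, n = 6), which gave a log2 difference (NP minus P) of 0.56 (SE 0.171; limma, adjusted p = 0.400). Its groups did not overlap, by 0.0256 normalized counts between NP2810 and, once more, P904. It was 1 of 2 pathway genes without overlap, with SPR (3.39% of the 59 genes, against 1.09% of all genes tested). FKBP5, a gene that glucocorticoids can induce, had a log2 fold change of -0.39 (limma, adjusted p = 0.660). What sets its level in these biopsies was not tested. EGR1 was set apart by P617 at 6085 normalized counts, whereas the remaining P cows had 127 to 374 and the NP cows 178 to 951 (log2 fold change 0.05, SE 0.897). HSD11B1 and HSD11B2, which regenerate and inactivate cortisol, had log2 fold changes of 1.12 and 0.64 (limma, adjusted p = 0.760 and 0.724).

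The genes next to PNMT were examined, because the use of strand in counting is not stated and reads of close neighbours could be shared. In the RefSeq table, which is of another assembly and was used for gene order only, PNMT lies between TCAP and PGAP3, and its span overlaps neither. TCAP, a muscle sarcomere protein, averaged 224 ± 14.2 normalized counts in NP (SD, n = 5) and 166 ± 50.1 in P cows (SD, n = 6), with a log2 fold change of 0.49 (limma, adjusted p = 0.641). PGAP3 had 855 ± 74.7 and 800 ± 104, with a log2 fold change of 0.10, and STARD3 had 521 ± 57.4 and 409 ± 79.8, with 0.36 (limma, adjusted p = 0.564). The 6 neighbours tested all lay higher in the NP group, by 0.10 for PGAP3 up to 1.26 for PPP1R1B on the log2 scale, beside 50.2% of all genes, and their median was 0.42. The 2 largest, PPP1R1B (SE 0.697) and GRB7 (0.66, SE 0.670), had their lowest values in P617, at 29.4 and 35.0 normalized counts. Their highest P values were 686 and 484. With the smooth muscle score as a covariate PGAP3 turned to -0.05 and STARD3 came to 0.13, and without P617 and P1541 they stood at 0.02 and 0.20. TCAP was lowest in P617, at 85.9 normalized counts, where PNMT had 9 reads, as it had in P1631 and P1753. Whether reads were shared was not tested.

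On the log2(normalized count + 1) scale, markers of several other cell types also lay higher in NP cows. The plain mean of the stromal gene PDGFRA was nevertheless higher in P cows (2643 against 2497 normalized counts). All 6 endothelial genes were higher in NP cows (median log2 fold change 0.80), with summed levels of 7234 to 13340 normalized counts in NP and 3574 to 12233 in P cows, where P904 was again the highest P cow. All 5 leukocyte genes were higher in NP cows (median 0.84), with sums of 553 to 1126 against 347 to 726, and all 6 stromal genes as well (median 0.63), with sums of 201930 to 275566 against 94283 to 281328. The 3 Schwann cell genes were higher in NP cows too, with sums of 4419 to 6720 against 469 to 8184. The epithelial sums were 9083 to 14400 in NP and 1946 to 21509 in P cows. The 5 mast cell genes, among which 1 had no read, had sums of 552 to 1003 in NP and 159 to 1458 in P cows. KIT, with a mean of 757 over the 11 cows, made most of these sums, the next being TPSB1 at 66.4. The 3 mast cell genes that were tested were higher in NP cows (median 0.57). With limma 0 genes of these lists had an adjusted p-value under 0.1, while 5 endothelial, 4 leukocyte, 2 stromal and 1 Schwann cell gene had an unadjusted p-value under 0.05 and a higher level in NP cows, beside 5.49% of all genes. The part of these cell types in the values of PNMT, ADRB1 and ADRA2B was not tested. Of the 6 smooth muscle genes, 2 had an unadjusted limma p-value under 0.05 and a lower level in NP cows, beside 2.35% of all genes.

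Genes whose pattern was most like that of PNMT were sought among 15080 genes, after each group's mean had been subtracted, so that the difference that chose PNMT does not enter. Over the 11 cows, Pearson's r on the log2 scale was 0.93 for SFXN4, a mitochondrial membrane protein, 0.91 for a gene listed without an approved symbol (ENSBTAG00000026882), 0.88 for SOSTDC1, a secreted antagonist of BMP and Wnt signals, 0.85 for MIR1291 (ENSBTAG00000042536) and 0.85 for COMMD6. The lowest values were -0.90 for PHF19, -0.89 for HDGF and -0.87 for GABBR2. These values describe 11 cows whose genes share 1 scaling, and 20 genes had an r beyond 0.8 in either direction. No gene of the pathway lists was among those named. The nearest pathway genes were FKBP5 (0.51), RGS5 (0.50) and TCAP (0.47), which ranked only 500, 536 and 731 among the 15080 genes. ADRBK1, a kinase that desensitises beta receptors, was the farthest pathway gene at -0.62. Of the cell type markers, DCN (0.63, rank 143), CD68 (0.58, rank 262) and CPA3 (0.54, rank 378) ranked above FKBP5, and the other markers tested ranked below it.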

How the data were processed

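Endometrial RNA of 11 cows was sequenced by the authors as paired-end polyA libraries. The authors filtered the reads with Seqyclean, mapped them with Bowtie2 (2.1.0 per the labels) to masked UMD3.1, counted them with HTSeq (0.5.4p2) and deposited normalized counts, a signal per gene and cow, made with DESeq2 (1.12.1). The annotation and the use of strand are not given in the sources used here. All values (100%) were whole multiples of 1 read within 0.01 read, so that the reads were recovered for counting intervals and count tests, and 0 columns were left unused. In P1753 and NP238 1 read was worth 1.01 normalized counts, so near 1 that this step is harder to tell from rounding than in the other cows.

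Genes with a mean of at least 5 normalized counts over the 11 cows (15081) were fitted with limma 3.58.1 (trend) in R 4.3.3 on log2(value + 1), with the Benjamini-Hochberg adjustment at 0.1. On this scale the fold change of low genes depends on the pseudocount: for TH it was 0.97 with 0.5 and 0.45 with 5. It can also exceed that of tests on reads. TH had 0.85 in limma and 0.47 in both edgeR and DESeq2, and DDC had 0.58 in limma, 0.36 in edgeR and 0.37 in DESeq2. edgeR 4.0.16 and DESeq2 1.42.0 on the recovered reads were alternatives, as were other pseudocounts, filters and scaling, a smooth muscle covariate (mean log2 value of its genes) and leaving out cows. The fits were tested on simulated data.

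The members and lists were chosen with earlier results of these data known. Named were the members, pathway genes with an unadjusted p-value under 0.05 or without overlap, those with the highest mean in their list, and the 5 genes most and 3 least like PNMT. The rule let any gene of the pathway lists be named, and these further genes and the single marker genes were picked as examples after their values were seen. Levels were not compared between genes, because transcript lengths were not used here, and no sequences or coordinates are given. The symbols not found in the table, among them ADRA2C, SLC6A3 and RNLS, were not analysed here. Results of single genes withheld from the text are not reported here, though these genes count in their lists.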

Additional observations from a re-analysis of the deposited data

Results flagged for a closer look

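Within each group, the highest and lowest cow were compared with the nearest other cow of that group (Dixon's 95% critical value for the gap as a share of the range), over 74 groups of cows in 37 genes. Chance flags about 1 in 20 groups (5%) of normally distributed values, and 11 were found here. The normalized counts were used without a log scale, and some lie near 0. Some of the genes were also picked for their values in these data. The 11 are therefore not to be read as an excess over chance. For the members, P904 was the only P cow with DBH reads, at 3.83 normalized counts against 0, and a single cow with reads among cows at 0 always meets this criterion, so that DBH is not to be set against the 5%. P617 had 552 normalized counts of MAOA, with 335 in the next P cow. NP638 had 9.13 of ADRA1A, with 1.01 in the next NP cow.

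Of the pathway genes, P617 was far above the other P cows in EGR1 (6085 normalized counts, the next 374) and HSD11B1 (48.6, the next 13.1), P904 in RGS5 (2910, the next 1115), P1541 in ADRA1D (19.4, the next 7.91) and P1753 in SLC6A2 (255, the next 24.0). NP2810 was above the other NP cows in SPR (903, the next 697). P2396 was below the other P cows in ADRA1B (14.0, the next 38.8) and P1753 in FKBP5 (3609, the next 5528). Of these 11 cases, 3 are cow P617. The causes were not tested.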

How the results depend on the processing

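The log2 fold change of PNMT kept its direction in each alternative, from 1.40 with a pseudocount of 5 to 1.81 without cow P904, and from 1.50 to 1.81 with any 1 cow removed. Removing any 1 cow gave 0.59 to 1.19 for TH, 0.16 to 0.85 for DDC, -0.01 to 0.24 for MAOA and -0.83 to -0.37 for MAOB. Other settings went outside these ranges. TH was 0.45 with a pseudocount of 5, 0.47 in both edgeR and DESeq2, and 0.11 with the smooth muscle covariate. Without P617 and P1541 TH was 0.32, DDC -0.07, MAOA 0.30 and MAOB -0.08. MAOB was 0.13 with the smooth muscle covariate. Over all genes tested limma called 0 genes, 0 to 171 with any 1 cow removed, with 171 without cow P904, and 17 without P617 and P1541, while DESeq2 called 201. Among the pathway genes limma called 0, and 0 to 1 with any 1 cow removed, the 1 being RGS5 without P904 (log2 fold change 1.25). The cause of these differences was not tested. Of the 5 genes most like PNMT, 1 remained among the first 5 without P617 and P1541 and 3 with Spearman's rho. TH and DDC could not be fitted with a minimum mean of 20, nor DBH and ADRA1A at 5. Depth limits the members at low counts, DBH, ADRA1A, DDC and TH, where a few reads make a value. No paired analysis was possible because the groups share no cow.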
